A study of Mus musculus with 8 samples.

Results

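Alpha and beta tubulin are the paired proteins from which microtubules are built, and each is encoded by a family of closely related genes. The genes described here are 5 alpha tubulins (Tuba1a, Tuba1b, Tuba1c, Tuba4a and Tuba8) and 5 beta tubulins (Tubb2a, Tubb2b, Tubb3, Tubb5 and Tubb6), found by symbol in a table of 34465 genes. Of these 10 symbols 9 had a row, and all 9 reached the minimum for testing, a mean signal of 1, as 16443 genes did. Tubb3, the beta tubulin known from neurons, is not analysed here.

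Whole liver of mice was profiled by RNA sequencing in 8 libraries. All animals were of the strain 129S4/SvJae/FVB, 3 months old, and homozygous for a floxed allele of b-PDGFR (Pdgfrb), a receptor for platelet-derived growth factor. The Cre-negative libraries (GFAP Cre -/-) serve as controls that still carry the floxed allele, and the Cre-positive libraries add a Cre under the GFAP promoter, which the labels describe as removing the receptor from hepatic stellate cells only. Each genotype has 2 libraries after a sham operation and 2 taken 72 h after partial hepatectomy, and for sham livers the sources used here give no time. Whether the libraries came from separate animals is not stated, so p-values measure the spread between these samples, which may be technical. Values are a normalized signal, and how it was scaled is not stated in these sources. The depth of the libraries is unknown, and signal is compared between libraries for 1 gene at a time, not between genes.

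Microtubules form the spindle that parts the chromosomes in mitosis, and in resting hepatocytes they carry vesicles toward the blood and the bile canaliculus. After partial hepatectomy the remaining hepatocytes re-enter the cell cycle, so the organ needs spindles as well as transport tracks. Cells hold the amount of tubulin mRNA in check through autoregulation, in which free tubulin dimers trigger the decay of tubulin mRNAs that are being translated. The factor TTC5 recognizes the start of the growing tubulin chain at the ribosome, so the signal lies in the first codons of each mRNA.

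Those first codons are shown because they carry the autoregulation signal, and because the fourth sets the alpha genes apart from the beta genes. The sequences below are the first 12 coding bases of the GENCODE M21 transcripts (GRCm38), matched by symbol, with the fourth codon in capitals.
Tuba1a: atgcgtgagTGC
Tuba1b: atgcgtgagTGC
Tuba1c: atgcgtgagTGC
Tuba4a: atgcgcgagTGC
Tuba8: atgagggaaTGC
Tubb2a: atgcgcgagATC
Tubb2b: atgcgagagATC
Tubb5: atgagggaaATC

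The fourth codon was TGC in the 5 alpha genes and ATC in the 3 beta genes shown. In Tubb6, which is measured but not shown, it was ATT. Tuba1a, Tuba1b and Tuba1c began with the same 12 bases, while Tubb2a and Tubb2b differed from each other within them. Over the whole coding sequence Tuba1a and Tuba1b were identical at 98.3% of aligned bases, Tuba1b and Tuba1c at 97.9% and Tubb2a and Tubb2b at 96.5%. Tuba4a stood farther from Tuba1b, at 85.2%, and Tuba8 at 79.6%. Such likeness bears on the measurement, because a read from a shared stretch can be given to either gene. Of all 50-base windows of the transcript, 83.1% in Tuba1b, 75.5% in Tuba1a and 61.0% in Tuba1c also occurred in another annotated gene. The share was 49.6% in Tubb2a and 39.3% in Tubb2b, mostly with each other, whereas it was 0.1% in Tubb5 and 0.0% in Tubb6. In Tuba4a 48.8% of the windows were shared, nearly all with the overlapping gene Stk16, and the labels do not say whether reads kept their strand. The values of Tuba1a, Tuba1b, Tuba1c, Tuba4a, Tubb2a and Tubb2b are therefore uncertain as to how reads were divided, and those of Tubb5 and Tubb6 hardly so.

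After hepatectomy 5 tubulin genes rose: Tuba1a and Tuba1b among the alpha genes and Tubb2a, Tubb2b and Tubb5 among the beta genes. Of all tested genes 3.64% rose. The rise, averaged over genotypes, was between 3.27-fold for Tuba1a and 5.85-fold for Tubb2a on the log2(signal + 1) scale, with Tubb2b at 5.84-fold. Tuba1c, Tuba8 and Tubb6 lay higher in all 4 hepatectomy libraries than in all 4 sham libraries without passing the test, and Tuba4a did not separate the operations. Such an upward separation held for 11.2% of all tested genes. No tubulin gene passed a test between genotypes. All of these calls are of the averaged contrast, which sets 4 libraries against 4. They used limma on log2(signal + 1), two-sided, with p-values adjusted by Benjamini-Hochberg over all 16443 genes and a threshold of 0.05.

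**Figure D1:**
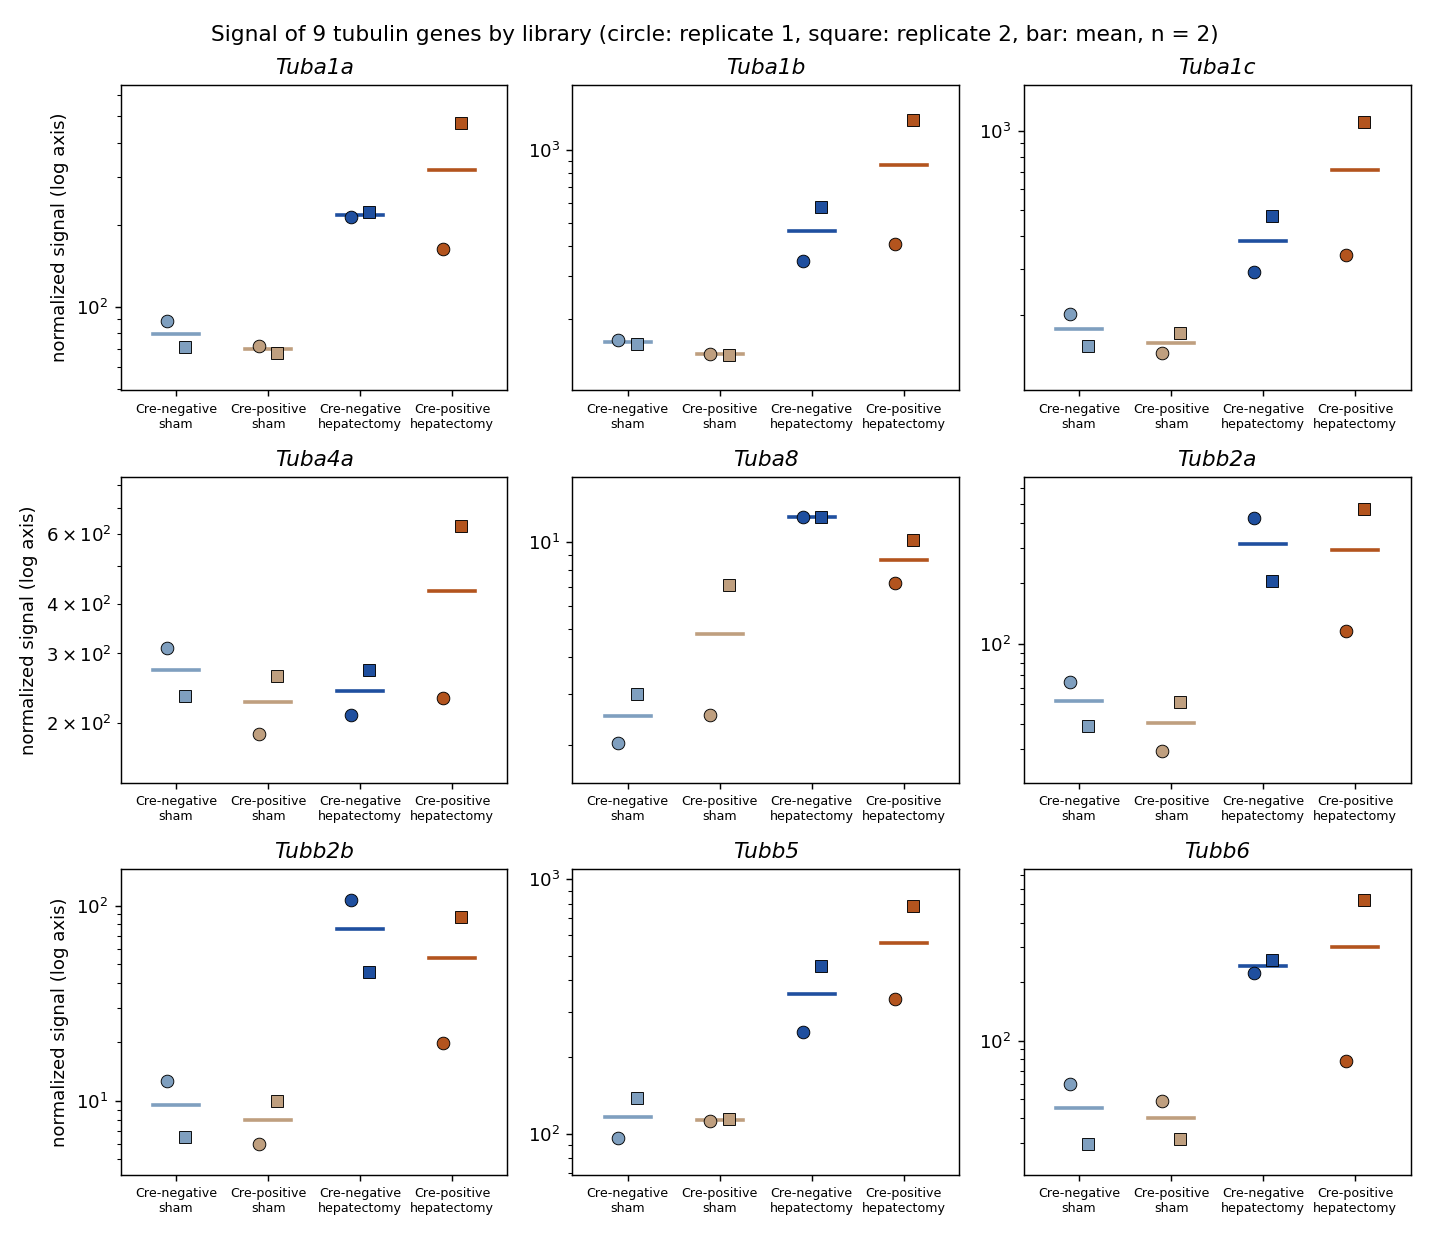
Normalized signal (log axis, with a range of its own in each panel) of 9 tubulin genes in the 8 libraries, by group; circles are replicate 1, squares replicate 2 and bars the mean of 2 libraries. In 8 of the 9 panels every hepatectomy library lies above every sham library, Tuba4a being the exception, and Cre-positive hepatectomy replicate 2 holds the highest point in 7 panels.

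Tuba1a is an alpha tubulin best known from the growing axons of the developing brain. Its signal in sham livers was 88.6 and 71.3 with the Cre-negative and 71.9 and 68.1 with the Cre-positive genotype. In hepatectomy livers the Cre-negative values were 214 and 222 and the Cre-positive ones 163 and 473. The 4 sham values lay close together, the Cre-negative hepatectomy values were nearly equal, and the Cre-positive hepatectomy replicates stood on either side of them. Group means were 79.9 ± 12.2 and 70.0 ± 2.7 in sham and 218 ± 5.66 and 318 ± 219 after hepatectomy (SD, n = 2, Cre-negative first). The averaged log2 fold change was 1.71 (95% interval 0.93 to 2.49, limma adjusted p = 0.0358).

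Tuba1b is an alpha tubulin made in most cell types. Its signal was 163.5 and 158 in Cre-negative sham, 144 and 142 in Cre-positive sham, 346 and 581 in Cre-negative hepatectomy and 408 and 1321 in Cre-positive hepatectomy libraries. Sham replicates differed by little (SD 4.12 and 1.58, n = 2), and after hepatectomy the spread was wide (463 ± 166 and 864 ± 646). Even the lowest hepatectomy library was above every sham library. The averaged log2 fold change of Tuba1b was 1.91 (95% interval 1.04 to 2.79, limma adjusted p = 0.037), and its order of group means was Cre-positive sham, Cre-negative sham, Cre-negative hepatectomy, Cre-positive hepatectomy. The 2 sham groups did not overlap, at a log2 difference of -0.16 (95% interval -1.40 to 1.08) between them, and the hepatectomy groups overlapped.

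Tuba1c, the third gene of the Tuba1 cluster on chromosome 15, was at 201 and 153 in Cre-negative sham, 143 and 171 in Cre-positive sham, 292 and 475 in Cre-negative hepatectomy and 337 and 1082 in Cre-positive hepatectomy libraries. It showed the same order of the 4 hepatectomy libraries as Tuba1b, with no overlap with sham. Averaged over genotypes, Tuba1c was higher by 1.51 on the log2 scale (95% interval 0.62 to 2.40) and missed the threshold (limma adjusted p = 0.0748).

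Tuba4a is an alpha tubulin known from platelets, muscle and brain. It was at 310.3 and 234 in Cre-negative sham, 188 and 263.5 in Cre-positive sham, 210.3 and 272 in Cre-negative hepatectomy and 231 and 629.6 in Cre-positive hepatectomy libraries. Of the hepatectomy libraries 3 lay within the range of the sham libraries, and Cre-positive hepatectomy replicate 2 alone stood above it. The averaged log2 fold change was 0.30 (95% interval -0.48 to 1.09, limma adjusted p = 0.587), an interval whose upper end lies below the estimates for Tuba1a and Tuba1b. Without Cre-positive hepatectomy replicate 2 the value was -0.06, so its direction rests on that library.

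Tuba8, an alpha tubulin described in testis, muscle and brain, had a low signal in every library. It was at 2.02 and 3.00 in Cre-negative sham, 2.52 and 7.11 in Cre-positive sham, 12.2 and 12.2 in Cre-negative hepatectomy and 7.19 and 10.2 in Cre-positive hepatectomy libraries. The highest sham library and the lowest hepatectomy library, both Cre-positive, were nearly equal. Its averaged log2 fold change was 1.38 (95% interval 0.57 to 2.20, limma adjusted p = 0.0759) and did not pass, and at so low a signal the added 1 shrinks the fold. Tuba8 was the member whose highest library was Cre-negative hepatectomy replicate 2.

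Tubb2a and Tubb2b lie side by side on chromosome 13 and are both best known from neurons. Tubb2a was at 64.6 and 38.8 in Cre-negative sham, 29.2 and 51.5 in Cre-positive sham, 422 and 205 in Cre-negative hepatectomy and 116 and 472 in Cre-positive hepatectomy libraries. All hepatectomy libraries lay above all sham libraries, with replicates far apart in both genotypes. Its averaged log2 fold change of 2.55 (95% interval 1.39 to 3.71, limma adjusted p = 0.0358) was at the 98.6th percentile of the genes tested.

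Tubb2b followed the same pattern at a lower signal, with 12.6 and 6.54 in Cre-negative sham, 6.02 and 10 in Cre-positive sham, 106 and 45.7 in Cre-negative hepatectomy and 19.7 and 87.8 in Cre-positive hepatectomy libraries. The lowest hepatectomy library was above the highest sham library, and the highest of the 8 was Cre-negative hepatectomy replicate 1, unlike for any other member. The averaged log2 fold change was 2.55 (95% interval 1.29 to 3.80, limma adjusted p = 0.0447). For both Tubb2 genes the group means ran Cre-positive sham, Cre-negative sham, Cre-positive hepatectomy, Cre-negative hepatectomy, and neighbouring groups of the same operation overlapped.

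Tubb5 is the beta tubulin found in most cell types, and dividing cells make much of it. Its signal was 95.9 and 138 in Cre-negative sham, 112 and 115 in Cre-positive sham, 251 and 455 in Cre-negative hepatectomy and 339 and 786 in Cre-positive hepatectomy libraries. The hepatectomy libraries were all above the sham libraries and overlapped between genotypes. With a log2 fold change of 1.86 (95% interval 1.09 to 2.63, limma adjusted p = 0.0275) Tubb5 had the smallest adjusted p of the family, and its reads are hardly shared with other genes.

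Tubb6 is a beta tubulin found in many cells outside the nervous system. It was at 60.2 and 29.6 in Cre-negative sham, 49.3 and 31.3 in Cre-positive sham, 221 and 258 in Cre-negative hepatectomy and 78.2 and 522 in Cre-positive hepatectomy libraries. Replicate 1 of the Cre-positive hepatectomy group was close to the sham range and replicate 2 was the highest of all. For Tubb6 the averaged log2 fold change was 2.40 (95% interval 1.05 to 3.76) and did not pass (limma adjusted p = 0.0669). It ranged from 1.72 without Cre-positive hepatectomy replicate 2 to 3.08 without replicate 1.

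**Figure D2:**
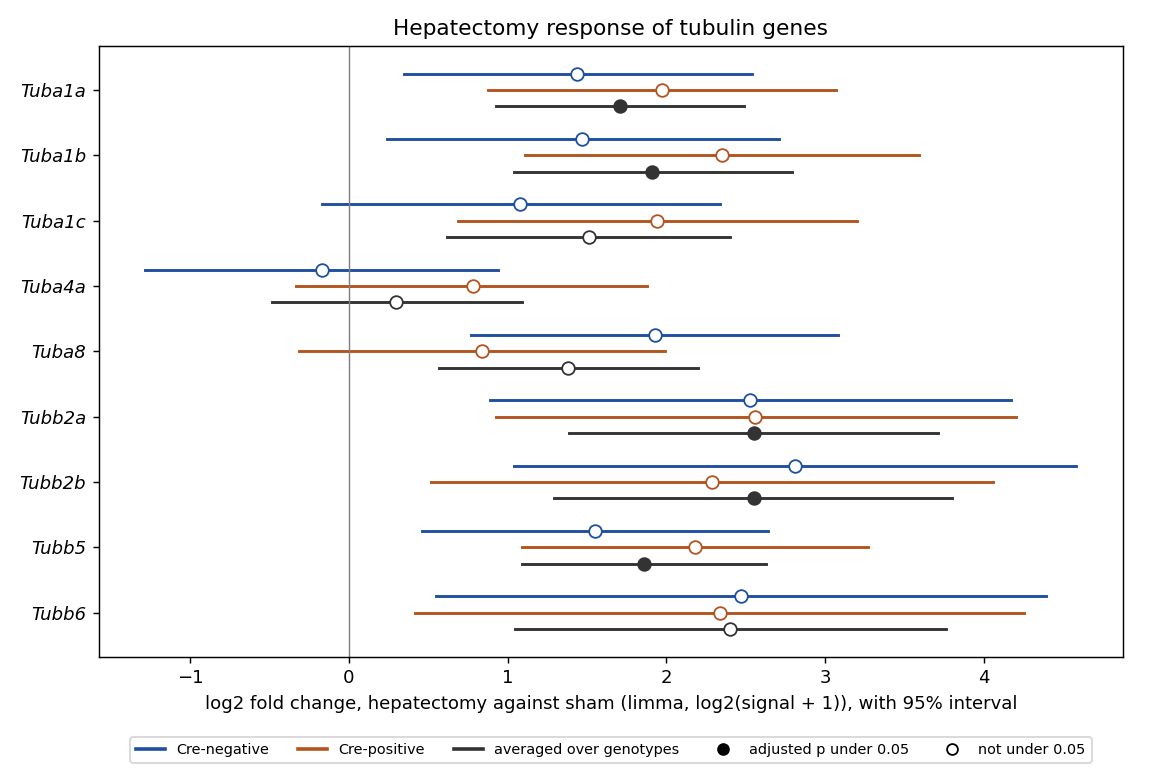
Log2 fold change of hepatectomy against sham on the log2(signal + 1) scale for 9 tubulin genes in each genotype and averaged over both, with 95% intervals from limma; filled points have an adjusted p under 0.05. The 5 filled points are all averaged values (Tuba1a, Tuba1b, Tubb2a, Tubb2b and Tubb5), and all 3 intervals of Tuba4a include 0.

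Over the family, 5 of 9 genes rose and 0 fell in the averaged contrast, where 3.64% of all tested genes rose and 0.845% fell. Counts over the family are not of independent genes, since Tuba1a, Tuba1b and Tuba1c, and likewise Tubb2a and Tubb2b, can share reads. The members were also chosen with earlier results of these data known. All 9 fold changes were positive, and their median was 1.86 against 0.12 over all tested genes, and this direction was the same under median-of-ratios scaling and quantile normalization, which took the median of all genes to -0.03 and that of the tubulins to 1.70 and 1.84. In 8 of 9 genes all 4 hepatectomy libraries were above all 4 sham libraries, which held for 11.2% of all tested genes. No tubulin had all hepatectomy libraries below all sham libraries, against 6.2% of all tested genes. All calls were lost when any of the 4 sham libraries or either of the 2 Cre-negative hepatectomy libraries was left out. In those fits fewer of all tested genes rose too. The median log2 fold change of the tubulins there was 1.70 to 2.08, with all 9 positive. Taking out Cre-positive hepatectomy replicate 1 gave 8 calls, the 5 included, in a fit where 18.5% of all genes rose and 14.2% fell. Taking out replicate 2 of that group gave 5, of which 4 were shared (Tubb6 in place of Tubb2b), with 4.6% of all genes rising and 1.56% falling.

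Within a genotype 2 libraries stand against 2, and 0 tubulin genes passed in either. In Cre-negative livers 1.01% of all genes rose and 0.103% fell. Of the 9 tubulins 7 had an unadjusted p under 0.05 by limma, against 21.3% of all genes, and log2 fold changes ran from -0.17 for Tuba4a to 2.81 for Tubb2b with a median of 1.55 against 0.21 over all genes. The smallest adjusted p there was 0.11, for Tuba8, at a log2 fold change of 1.93 (95% interval 0.77 to 3.08). In Cre-positive livers 0.845% of all genes rose and 0.0973% fell. Again 7 tubulins had an unadjusted p under 0.05, against 13.5% of all genes, and log2 fold changes ran from 0.78 for Tuba4a to 2.56 for Tubb2a with a median of 2.18 against 0.02 over all genes. The smallest adjusted p was 0.101, for Tubb5, at a log2 fold change of 2.18 (95% interval 1.09 to 3.27). The 2 contrasts compare different libraries, but their p-values share an estimate of the spread drawn from all 8 libraries. In each, both hepatectomy libraries lay above both sham libraries for 8 of 9 tubulins, all but Tuba4a. This held for 39.7% of all genes in Cre-negative and 23.9% in Cre-positive livers. Leaving out Cre-positive hepatectomy replicate 1 brought 6 tubulins past the threshold in Cre-negative livers, where 7.11% of all genes then rose, and 8 in Cre-positive livers, where 8.79% rose and 12.2% fell. Leaving out replicate 2 brought 6 in Cre-negative livers, with 7% of all genes rising. In Cre-positive livers it brought 0, and took the median of the tubulins from 2.18 to 1.21, Tuba4a to 0.05 and Tubb2a to 1.56.

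The genotype comparison asks whether Cre-positive livers differ in tubulin mRNA. In sham livers the log2 differences of the 9 genes lay between -0.36 for Tubb2a and 0.62 for Tuba8, and 0 passed by limma, with 0 at an unadjusted p under 0.05, where 0.00608% of all genes were called and 0.888% had such a p. For Tubb5, the member with the least shared sequence among those that rose, the difference was -0.02 (95% interval -1.11 to 1.07), an interval that still admits a change of over 2-fold either way. After hepatectomy 0 passed and 0 had an unadjusted p under 0.05, where 0.0182% of all genes were called and 18.3% had such a p. There the log2 difference was 0.71 for Tuba1b (95% interval -0.53 to 1.95) and -0.72 for Tubb2b (95% interval -2.49 to 1.05). By library values, Tuba1b was higher in both Cre-negative than in both Cre-positive sham libraries, as 19.4% of all genes were, and Tuba8 likewise after hepatectomy, as 26.3% of all genes were. No tubulin had both Cre-positive libraries on top, in sham (12.1% of all genes) or after hepatectomy (14.2%). Without Cre-positive hepatectomy replicate 2 the positive values of Tuba1a, Tuba1b, Tuba1c and Tuba4a became -0.42, -0.14, -0.15 and -0.05, and without replicate 1 the negative values of Tubb2a, Tubb2b and Tubb6 became 0.68, 0.33 and 1.12, while Tubb5 ranged from 0.00 to 1.21 and Tuba8 from -0.69 to -0.24 with any 1 library left out. Without replicate 1, 4 tubulins passed this contrast as higher in Cre-positive livers, in a fit where 2.44% of all genes were called higher and 10.6% lower.

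Whether the response to hepatectomy differed with genotype was tested as an interaction, and 0 tubulins passed it by limma, with 0 at an unadjusted p under 0.05, against 0.0122% of all genes called and 8.09% with such a p. The values lay between -1.09 for Tuba8 (95% interval -2.72 to 0.54) and 0.95 for Tuba4a (95% interval -0.62 to 2.51). For Tubb2a the difference was 0.03 (95% interval -2.28 to 2.35). Intervals of this width allow for differences of several fold.

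The hepatectomy libraries were not alike in how far tubulins stood above sham. Relative to the mean of the 4 sham libraries, Tubb5 was at 2.18, 3.95, 2.94 and 6.83 (Cre-negative replicates, then Cre-positive). Tuba1b was at 2.28, 3.82, 2.68 and 8.7, and Tubb2b at 12.1, 5.2, 2.24 and 9.99. Tuba1b and Tubb5 thus shared an order with Cre-negative replicate 1 lowest, while for Tubb2b that library was the highest. Cre-positive replicate 2 was the highest of the 8 libraries for 7 of 9 members.

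That library also departed from the others by GC content. Against the sham mean, its median difference on the log2(signal + 1) scale was -1.60 in the class under 40% GC and 0.66 in the class from 55% GC upward. The tubulin transcripts have 51.2% (Tubb2b) to 56.6% (Tubb6) GC, and in their own classes the median of all genes was 0.45 and 0.66 in that library, 0.30 and 0.61 in Cre-negative hepatectomy replicate 1, 0.19 and 0.40 in replicate 2 and -0.07 and -0.11 in Cre-positive hepatectomy replicate 1. The tubulins stood at 1.36 (Tuba4a) to 3.65 (Tubb6) in Cre-positive replicate 2 and at -0.08 (Tuba4a) to 1.56 (Tubb5) in replicate 1. In a fit chosen after seeing the data, with each library's GC trend removed, 6 tubulins passed in the averaged contrast, the 5 and Tubb6. Of all genes in that fit 4.52% rose and 2.94% fell. The tubulins had a median log2 fold change of 1.59 there, and all 9 were positive.

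**Figure D3:**
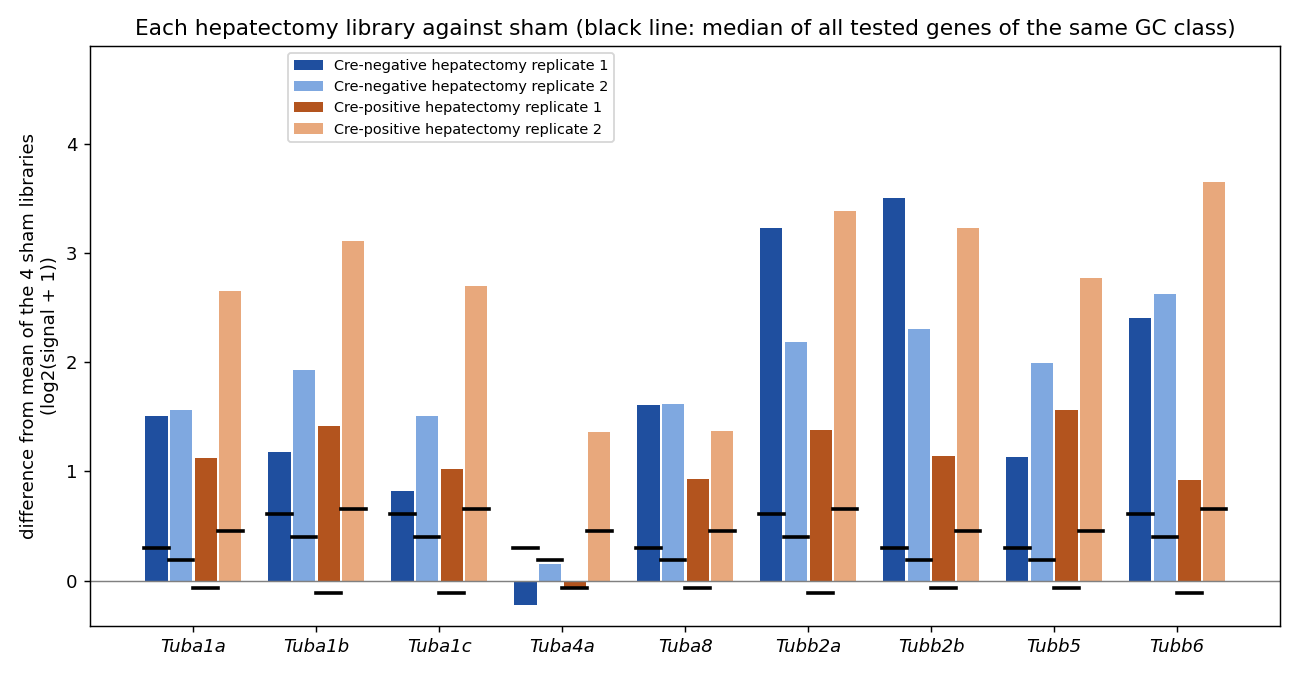
Difference of each hepatectomy library from the mean of the 4 sham libraries, on the log2(signal + 1) scale, for 9 tubulin genes; black lines give the median of all tested genes in the same GC class for that library. Tuba4a has 3 bars near 0 and 1 at 1.36, and the bars of the other genes lie above the lines in every library.

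Ratios between members within a library do not depend on a scaling factor common to all its genes. How the signal was normalized is not stated, and a step that treats genes differently could change the ratios. They were chosen after the values were seen and carry no test, and each is given relative to its mean in the 4 sham libraries. Tuba4a relative to Tuba1b was at 0.797 to 1.16 in sham and at 0.372, 0.287, 0.347 and 0.292 in the hepatectomy libraries, Cre-negative first. This ratio was low in all 4 hepatectomy libraries and far from sham, Cre-positive replicate 2 included. It is uncertain as to how reads were divided, since 48.8% of Tuba4a windows and 83.1% of Tuba1b windows also occurred in another gene. Tuba1c relative to Tuba1b was at 0.884 to 1.12 in sham and between 0.744 and 0.77 after hepatectomy, and Tubb5 relative to Tuba1b stayed between 0.771 and 1.15 over all 8 libraries.

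The Tubb2 genes moved apart from Tubb5 in 1 library. Tubb2a relative to Tubb5 was at 0.626 to 1.62 in sham and 4.03, 1.08, 0.823 and 1.44 in the hepatectomy libraries, so only Cre-negative hepatectomy replicate 1 was outside the sham range. Tubb2b relative to Tubb5 was at 5.29 in that library. Tubb2b relative to Tubb2a stayed between 0.883 and 1.32 over the 8 libraries. Tubb6 relative to Tubb5 varied nearly as much among sham libraries (0.552 to 1.61) as among hepatectomy libraries (0.593 to 2.26).

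**Figure D4:**
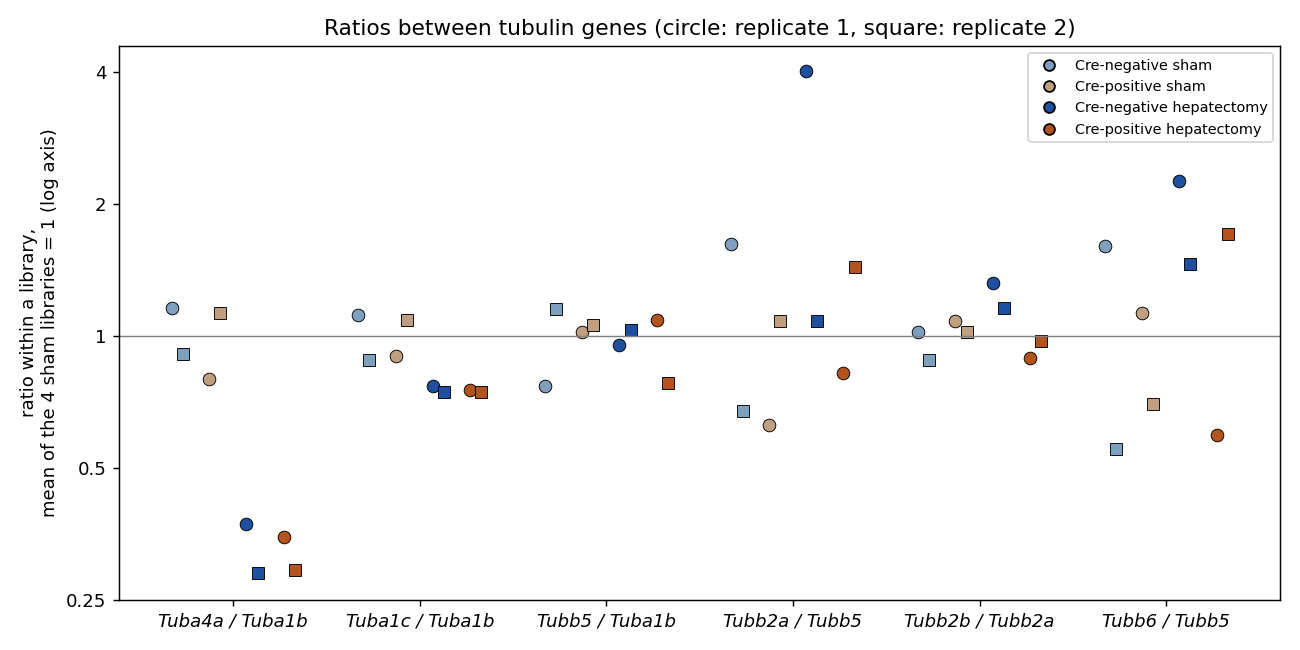
Ratio of pairs of tubulin genes within each of the 8 libraries, with the mean of the 4 sham libraries set to 1 (log axis); circles are replicate 1 and squares replicate 2. The 4 hepatectomy points of Tuba4a to Tuba1b lie between 0.287 and 0.372, and 1 point of Tubb2a to Tubb5, from Cre-negative hepatectomy replicate 1, lies at 4.03.

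The 8 libraries differ in operation and in the GC trend above, and genes that follow these differences correlate across them. The log2(signal + 1) values correlated most between Tubb2a and Tubb2b (Pearson r = 0.994) and between Tuba1b and Tuba1c (0.988), pairs that share sequence. Tuba1b and Tubb5, an alpha and a beta gene that share little sequence, followed at 0.984. The lowest value was 0.270, between Tuba4a and Tuba8. Among all tested genes other than the members, the profiles most like that of Tuba1b, the member with the highest mean signal as deposited, were those of Zdhhc18 (r = 0.9928), Anapc5 (0.9922), Gm17383 (0.9920), Pck2 (0.9898) and Gm10224 (0.9895). For Tubb2a, which shared the largest log2 fold change on this scale with Tubb2b, they were Gm15420 (r = 0.9915), Smarcb1 (0.9905), Uspl1 (0.9870), Samd1 (0.9851) and Tmem139 (0.9842), each over 8 libraries.

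Isoform values divide some genes further. Tuba1a had 3 isoforms, of which the main one held 80.5% to 89.6% of the gene's signal over the 8 libraries. Tuba1b had 2, with at least 99.3% in the main one. Tubb5 had 4, with 77.7% to 98.2% in the main one. An isoform of Tubb5 that held 5.6% to 16.9% in the other 7 libraries held 0.4% in Cre-negative hepatectomy replicate 1, where the main isoform was at its highest share. The remaining 6 genes had 1 isoform each.

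Promoters are given for 3 genes whose windows lie before, or within a few bases of, every GENCODE start, since Tuba1c, Tubb2a and Tubb5 were all higher after hepatectomy. The windows are the 250 bases before the RefSeq start on GRCm38.p6, written 5′ to 3′ on the gene's strand (plus for Tuba1c, minus for Tubb2a and Tubb5). CCAAT on either strand is in capitals.
Tuba1c chr15:99029641-99029890: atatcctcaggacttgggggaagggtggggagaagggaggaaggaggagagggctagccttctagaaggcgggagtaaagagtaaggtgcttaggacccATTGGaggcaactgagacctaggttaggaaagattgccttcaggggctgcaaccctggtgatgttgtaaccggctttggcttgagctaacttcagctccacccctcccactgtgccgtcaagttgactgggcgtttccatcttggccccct
Tubb2a chr13:34078009-34078258: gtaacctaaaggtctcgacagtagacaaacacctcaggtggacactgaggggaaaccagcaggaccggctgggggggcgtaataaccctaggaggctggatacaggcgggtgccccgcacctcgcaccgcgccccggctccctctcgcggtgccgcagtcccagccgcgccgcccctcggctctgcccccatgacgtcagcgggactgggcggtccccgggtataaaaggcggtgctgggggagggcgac
Tubb5 chr17:35838302-35838551: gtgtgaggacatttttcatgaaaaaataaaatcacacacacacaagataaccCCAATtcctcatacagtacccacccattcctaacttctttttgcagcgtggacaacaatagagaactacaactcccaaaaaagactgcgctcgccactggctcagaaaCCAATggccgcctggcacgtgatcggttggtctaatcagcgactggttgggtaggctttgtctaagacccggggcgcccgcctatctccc

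CCAAT, the letters bound by NF-Y in many cell cycle promoters, was in 3 of the 7 windows that matched a measured member (Tuba1a, Tuba1c and Tubb5), against 33.8% of 32851 windows. GGGCGG, the letters of a GC box, was in 4 of 7 (Tuba1a, Tuba1b, Tuba4a and Tubb2a), against 32.7%. TTTGAA or TTCGAA, the letters of the cell cycle genes homology region, was in 0 of 7 against 17.1%, and TTTNNCGC, an E2F site, in 0 of 7 against 4.3%. Both strands were searched, and each motif was counted whether or not it overlapped another. Tubb2b and Tubb6 had no window in this search. Tubb5, with CCAAT, and Tubb2a, without it, both rose.

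The other tubulins were 13 symbols, of which 10 were in the table and 7 were tested. By limma 0 passed in the averaged contrast and 2, Tubb4b and Tube1, had an unadjusted p under 0.05, as 23.8% of all genes did. Tubb4b, a beta tubulin of cilia and of most cell types, was at 306 and 196 in Cre-negative sham, 174 and 219.6 in Cre-positive sham, 576 and 1066 in Cre-negative hepatectomy and 511.5 and 2315 in Cre-positive hepatectomy libraries. Its log2 fold change was 2.07 (95% interval 0.95 to 3.20, limma adjusted p = 0.0599), with no overlap between operations and the highest value in Cre-positive hepatectomy replicate 2. In Tubb4b 55.5% of the 50-base windows also occurred in another annotated gene, mostly in Tubb4b-ps1. The values of Tubb4b are therefore uncertain as to how reads were divided. Tube1, the epsilon tubulin of centrioles, was at 4.34 to 5.65 in sham and at 9.26, 18.2, 10.5 and 20.3 after hepatectomy (log2 fold change 1.26, limma adjusted p = 0.0883). Tubg1, the gamma tubulin that nucleates microtubules, was at 227 to 264 in sham and 204 to 531 after hepatectomy (log2 fold change 0.36, limma adjusted p = 0.432).

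Tubg2, its close copy, was at 6.67 to 9.75 and 7.65 to 21.4. Tubd1, the delta tubulin of centrioles, was at 37.2 to 43.0 and 38.1 to 94.2. Both overlapped between operations. Tubb1, the beta tubulin of platelets, was at 0.346 to 1.504 in sham and 3.59, 1.095, 0.0994 and 4.13 in the hepatectomy libraries, Cre-negative before Cre-positive. Tubb4a, a beta tubulin of the nervous system, was at 0.599 to 0.842 in sham and 0.864 to 3.31 after hepatectomy. Tuba3b and Tubal3 were listed at 0 in every library, and Tuba3a in 7 of 8.

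Genes that act on tubulin were described from 4 lists, to be read against 23.8% of all genes at an unadjusted p under 0.05. The gamma-tubulin ring complex, which seeds microtubules, had 11 genes tested, 0 past the threshold by limma, 2 at an unadjusted p under 0.05 and a median log2 fold change of 0.08. Akap9, which anchors it at the Golgi, was at 342 to 395.5 in sham and at 312, 227, 361 and 48.3 after hepatectomy, lowest in Cre-positive replicate 2. Tubgcp4, a subunit of the ring, was at 145 to 204 in sham and 139.6 to 198 after hepatectomy. The folding list, the CCT chaperonin, prefoldin and the tubulin cofactors that make new dimers, had 20 genes tested of 21, 0 past the threshold, 3 at an unadjusted p under 0.05 and a median of -0.01 against 0.12 over all genes. Of its CCT subunits, Cct8 was at 2195 to 2333 in sham and 1285 to 2427 after hepatectomy, and Cct2 at 1689 to 1952 and 1055 to 1986.

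The list of tubulin modification and mRNA autoregulation had 18 genes tested, 0 past the threshold by limma, 3 at an unadjusted p under 0.05 and a median of 0.19. Sirt2 and Hdac6, the deacetylases of alpha tubulin, had log2 fold changes of -0.09 and 0.22. Ttc5, the autoregulation factor, named after its values were seen, was at 61.6 to 72.8 in sham and at 78.7, 98.9, 69.3 and 141.5 after hepatectomy, with overlap between the operations (log2 fold change 0.47, limma adjusted p = 0.317). The list of proteins that bind, cap, sever or depolymerize microtubules had 29 of 36 genes tested and a median of 0.30. By limma 6 rose and 0 fell, against 3.64% and 0.845% of all genes, and 13 had an unadjusted p under 0.05.

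Stmn1, stathmin, which binds tubulin dimers and destabilizes microtubules, rose by 4.64 on the log2 scale (limma adjusted p = 0.00301), from 14.0 to 22.2 in sham to 391, 881, 223 and 676. Fignl1, a AAA ATPase related to the severing enzyme fidgetin and known from DNA repair, rose by 3.05 (limma adjusted p = 0.00297). Tpx2, a spindle assembly factor, rose by 4.59 (limma adjusted p = 0.00547), and Prc1, the bundling protein of the spindle midzone, by 4.23 (limma adjusted p = 0.00675). Tacc3 and Kif2c, both of the mitotic spindle, completed the 6. The highest value of Stmn1 was not in the library with the most Tuba1b: Stmn1 peaked in Cre-negative replicate 2 and Tuba1b in Cre-positive replicate 2.

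Markers of cell types moved with the operation as well, and their part in the tubulin values was not tested. Counts of markers are of the averaged contrast, where 3.64% of all tested genes rose and 0.845% fell. In whole liver, fewer cells of a type and less RNA per cell cannot be told apart. All 5 proliferation markers rose, their summed signal going from 51.0 to 83.0 in sham to 941, 2162, 1078 and 2244 in the hepatectomy livers (Cre-negative first), with replicate 1 below replicate 2 in both genotypes, as for Tuba1b and Tubb5. In the Cre-positive pair Mki67 (122 and 30.3) and Top2a (539.8 and 389) had the opposite order, and Cdk1, Ccnb1 and Birc5 the order of the sum. Of the 4 myofibroblast markers 2 rose, with sums of 675 to 1120 in sham and 1245, 1660, 2386 and 3261 in hepatectomy livers. The collagens Col1a1 and Col3a1 made up most of each sum. Acta2 and Tagln were at 19.6 and 28.8 in Cre-positive hepatectomy replicate 1, against 21.0 to 47.6 and 28.7 to 42.6 in sham. In the other hepatectomy libraries both lay above the sham range. Of the 8 stellate cell markers 1 rose and 1 fell, with sums of 881.5 to 1382 in sham and 860.5 to 1029 after hepatectomy.

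Because several beta tubulins are known from neurons, 8 markers of neurons and Schwann cells were read beside them. Their sum was 10.7 to 16.8 in sham and 61.9, 36.5, 10.03 and 31.0 in the hepatectomy libraries, in the same order. Like Tubb2b, this sum was highest in Cre-negative hepatectomy replicate 1 and lowest among hepatectomy libraries in Cre-positive replicate 1. Of the 5 tested 1 rose, Uchl1. The neuronal markers Gap43, listed at 0 in 7 of 8 libraries, and Snap25, at 0 to 2.58, were at or near 0.

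Platelet markers, 0 of 3 tested past the threshold by limma and 0 at an unadjusted p under 0.05, summed to 57.1 to 83.6 in sham and 157, 70.3, 23.95 and 123 in the hepatectomy libraries. Tubb1 was likewise lowest in Cre-positive hepatectomy replicate 1. Erythroid markers, of which 1 of 5 rose, summed to 3548 to 6164 in sham and 6722 to 34150 after hepatectomy, highest in Cre-positive replicate 2, the library with the most Tuba1b, Tubb5 and Tubb6. Of the 5, 4 had positive fold changes. Alas2 went the other way, at 1563 to 1990 in sham and 696, 939, 835 and 1808 after hepatectomy, Cre-negative first. Of the 7 hepatocyte markers 0 rose and 1 fell, Tat. Alb, albumin, was listed at 0 in 7 of 8 libraries, so a 0 here can be a failed estimate. Without Alb the markers summed to 251400 to 271100 in sham and 123900 to 314300 after hepatectomy, lowest in Cre-negative replicate 1. Endothelial, macrophage, leukocyte and cholangiocyte markers had 0 genes that rose by limma and 1 that fell, an endothelial gene, with 2, 2, 0 and 1 at an unadjusted p under 0.05. Pdgfrb, the targeted gene, was at 46.0 to 63.3 in sham and 123, 70.5, 63.1 and 99.9 in the hepatectomy libraries, and a lower level with Cre was not detected.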

How the data were processed

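Liver RNA was sequenced in 8 libraries, 2 in each of 4 groups taken from the titles. The authors deposited a normalized signal for genes and isoforms. Per the submitters' processing notes, TopHat, Cufflinks, mm9 and NCBIM37 were used, in versions not stated, and the normalization and counting are not given in the sources used here. Library sums ran from 8617664 to 11583777. Read depth is unknown, so no counting interval is given. FPKM or a signal had been assumed, and the test was kept. limma 3.58.1 (R 4.3.3) was fitted on log2(signal + 1) for the 16443 genes with a mean of at least 1, with 4 group means, all 8 libraries and an intensity trend (4 residual and 3.25 prior degrees of freedom), and was tested on simulated data. Fold changes are on that scale and understate the change of low genes. Named were all 10 members and, from each list, up to 4 genes past the threshold or else the 2 of highest mean, and all other tubulins. Members and lists were chosen with earlier results of these data known. GC content, available for 96.6% of tested genes, and coding sequences came from GENCODE M21, and promoters, for 7 of the 9 measured members, from RefSeq (GRCm38.p6). The files hold no coordinates. Settings varied were the pseudocount, filter, scaling, trend, GC trend, libraries fitted and each library left out.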

Additional observations from a re-analysis of the deposited data

How the results depend on the processing

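The count of tubulin genes past the threshold in the averaged hepatectomy contrast was 5 in the reported fit. It was 0 with no filter beyond a value above 0 in at least 1 library, with 23636 genes tested, and 3 without the intensity trend (Tuba1a, Tubb2a and Tubb5). Of all genes 1.39% rose without the filter and 3.52% without the trend, against 3.64% in the reported fit. It was 4 with a pseudocount of 10, with median-of-ratios scaling and with quantile normalization, and 5 with a pseudocount of 0.1 or a minimum mean of 10, which left 8 tubulins tested, without Tuba8. In the order named, 3.22%, 2.73%, 2.63%, 3.56% and 4.28% of all genes rose. In each of these settings but the minimum mean of 10, 8 of 9 had an unadjusted p under 0.05 by limma. Leaving out each library in turn gave 0 to 8. In Cre-negative livers that range was 0 to 6 and in Cre-positive livers 0 to 8, against 0 in the reported fit of each. With each library's GC trend removed, an alternative chosen after seeing the data, the count in Cre-positive livers was 1 (Tuba1a). Of all genes 1.58% rose and 0.384% fell there. For genotype after hepatectomy, leaving out a library gave 0 to 4, and for genotype in sham and for the difference of responses it gave 0 in every setting run. The cause of these moves was not tested. When a library is left out its group has 1 sample, which is assumed to vary like the other groups.

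Directions that turned were all of values that did not pass. Tubb5 between genotypes in sham went from -0.02 to 0.01 with median-of-ratios scaling, quantile normalization and the GC trend removed. Tuba8 between genotypes after hepatectomy went from -0.47 to 0.19 with quantile normalization. Tubb2a in the difference of responses went from 0.03 to -0.01 with a pseudocount of 10 and to -0.03 with quantile normalization. With 1 library left out, Tuba4a ranged from -0.37 to 0.03 in Cre-negative livers and from -0.06 to 0.66 in the averaged contrast. Between genotypes in sham, Tuba1c ranged from -0.36 to 0.03, Tubb2a from -0.76 to 0.04, Tubb2b from -0.63 to 0.22, Tubb5 from -0.28 to 0.24 and Tubb6 from -0.60 to 0.39. Between genotypes after hepatectomy, Tuba1a ranged from -0.42 to 1.11, Tuba1b from -0.14 to 1.56, Tuba1c from -0.15 to 1.53, Tuba4a from -0.05 to 1.39, Tubb2a from -1.33 to 0.68, Tubb2b from -1.77 to 0.33 and Tubb6 from -1.60 to 1.12. In the difference of responses, Tuba1a ranged from -0.24 to 1.30, Tubb2a from -0.97 to 1.04, Tubb2b from -1.57 to 0.53 and Tubb6 from -1.50 to 1.23. No paired analysis was possible because the labels number the libraries from 1 to 8 and give no number shared between groups. A fit on only the groups compared was not run for the averaged contrast and the difference, which use all 4 groups. The unknown depth and 2 libraries per group limit what could be detected.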
